A study of Homo sapiens with 4 samples.

Results

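Eph receptors and ephrins were examined in MCF12A cells edited at *C1orf132* and in wild-type MCF12A cells, as 7 receptors (*EPHA1*, *EPHA2*, *EPHA4*, *EPHB2*, *EPHB3*, *EPHB4*, *EPHB6*) and 3 ligands (*EFNA1*, *EFNB1*, *EFNB2*). These 10 genes were taken by symbol from the 16811 genes with a value in the deposited table, and receptors and ligands were kept apart. MCF12A is an epithelial line grown from human breast that does not form tumors, although the labels call it a breast cancer cell line. The wild-type group held 2 libraries of unedited cells. The edited group (genotype C1orf132 KO) held 2 libraries of cells in which CRISPR/Cas9 and a pair of guide RNAs had removed the p2 promoter region of this long noncoding RNA gene. Edited cells had been grown as colonies from sorted single cells, and the sources used here do not give the number of colonies behind the libraries. All cells shared a medium with horse serum, EGF, hydrocortisone, cholera toxin and insulin. Poly(A)-selected RNA gave single-end reads, each 75 bases long. The study followed the edited cells for migration and for a shift from epithelial to mesenchymal expression. Here the level of each gene in the edited libraries is set beside its level in the wild-type libraries. The sources used here describe no growth from single cells for the wild-type libraries. An effect of the edit was therefore not tested apart from one of growth as colonies.

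Eph proteins are the largest group of receptor tyrosine kinases, and their ligands, the ephrins, sit on the surface of neighbouring cells. A-class ephrins are held in the membrane by a lipid anchor and mainly bind EphA receptors, whereas B-class ephrins span the membrane and mainly bind EphB receptors. Contact signals into the receptor-bearing cell (forward) and, through the ephrin, into the ligand-bearing cell (reverse), and acts on the cytoskeleton. In epithelia these proteins are known for cell sorting, for the setting of tissue boundaries and for the control of adhesion and migration.

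Each value is a signal that the authors normalized by a scheme not given in the sources used here. In 286 single-transcript genes, the worth of 1 read times the transcript length in kb had a median of 0.0626 in edited replicate 1. Its quartiles were 0.0556 and 0.0733. The signal was thus treated as per length, and comparisons of levels between different genes rest on this. Where values come in pairs, replicate 1 is given before replicate 2. The values summed to between 1444644 and 1655437 per library. They are not read counts, but the ratio between libraries of what 1 read was worth recurred exactly in 85 to 150 genes. Its inverse, relative to edited replicate 1, was 1.12 in the other edited library and 0.93 and 1 in the wild-type pair. This is a scaling factor, and total read numbers were not used here. The groups were compared by limma on log2(value + 1) over 9590 genes that averaged 10 or more, and genes with a Benjamini-Hochberg adjusted p under 0.05 were called. At this threshold 680 of 9590 genes were called (7.09%), with higher edited values in 277 (2.89%) and lower ones in 403 (4.20%). All tested genes had a median log2 difference of 0.09, where positive values are higher in edited cells. It moved to -0.03 with equal library totals and to -0.01 with cyclic loess, so values near 0 can change sign with the scaling. Single genes could move further, as *EPHA4* did from -0.03 to 0.16 with quantile normalization. Directions of the 10 genes and of the other family and signalling genes named below held under every scaling tried unless stated, and those of markers, neighbours and medians were not recomputed. With 2 libraries a group, the lowest two-sided p of an exact permutation test is 0.33, so each call rests on the variance that limma shares between genes. Groups rest on the labels alone, because *C1orf132* was not analysed here.

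The epithelial label of the cells was checked with marker lists. Of 20 tested epithelial markers, 11 were lower in edited cells (*CDH1*, E-cadherin, 3.89 and 1.54 in the edited pair against 150.5 and 123) and 1 was higher (*KRT8*, a simple keratin). All 24 analysed epithelial markers summed to between 4222 and 4638 in edited and between 8009 and 14785 in wild-type libraries. Most of each sum was *KRT5*, which was not called (3514 and 3056 in the edited pair against 4590.3 and 11914). Of 9 tested mesenchymal markers, 4 were higher and 0 lower. The 14 analysed ones summed to between 3722 and 8798 in edited and between 2733 and 2843 in wild-type libraries. In edited replicate 2 most of this sum was *FN1* (3735) and *TGFBI* (2873), which were not called. Epithelial and mesenchymal markers under a mean of 10 were tested among all genes, of which 4.73% were called. There *CDH2* (4.52 and 8.87 in the edited pair against 0.429 and 0.0996, limma adjusted p = 0.0347) and *ZEB1* (limma adjusted p = 0.0307) were higher. *GRHL1* (limma adjusted p = 0.0138) and *OVOL1* (limma adjusted p = 0.0371) were lower. *ZEB2*, *SNAI1*, *LOX*, *OCLN* and *KRT19* were not called. None of 10 endothelial markers was among the genes analysed, and 2 of 8 immune and 3 of 9 fibroblast markers were. Of these, 0 of 2 immune markers were called by limma. The fibroblast marker *COL1A1* was lower (3.19 and 5.58 in the edited pair against 15.6 and 28.1, limma adjusted p = 0.042). *DCN* (15.1 and 105 against 7.42 and 1.09) and *FAP* (12.2 and 114 against 55 and 23.1) were not called. In bulk RNA, fewer cells of a type and less RNA per cell cannot be told apart. The part that a changed share of epithelial cells has in the results below was not tested.

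*EPHA1* and *EPHB3* RNA was lower in edited cells, while no receptor or ligand of the 10 was called higher. *EPHA1* kept 4.52% of its wild-type level and *EPHB3* 42.1%. Thus 2 of the 5 receptors with a mean of at least 10 were called and 0 of 3 ligands, against 7.09% of all tested genes. That mean was reached by 8 of the 10 genes, all but *EPHA4* and *EPHB6*. These 2 were tested among all genes, of which 4.73% were called, and did not pass. In total, 8 of the 10 genes did not pass the threshold. *EPHA2* was 2.26 times as high in edited cells and *EFNA1* stood at 35.9% of its wild-type level in the mean, but neither passed. The plot of values by library shows these genes side by side.

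**Figure D1:**
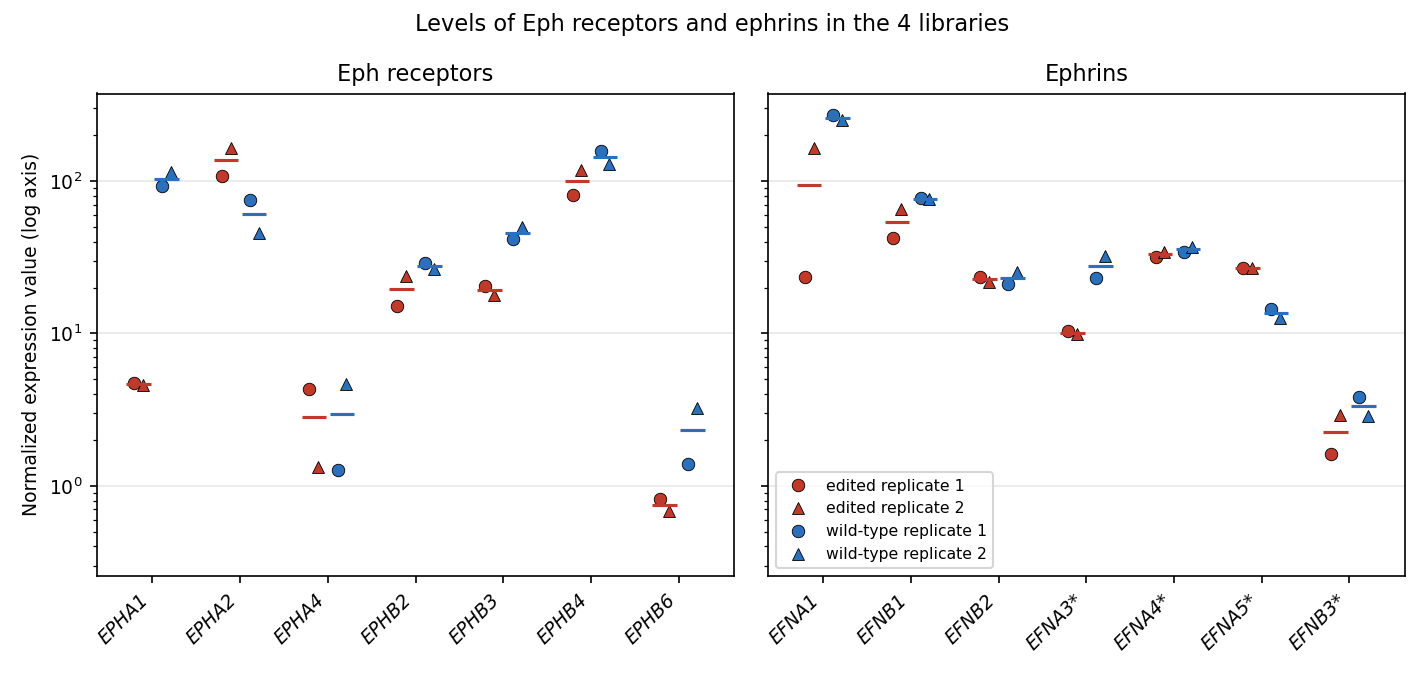
Normalized expression value (log axis) of 7 Eph receptors and 7 ephrins in edited (red) and wild-type (blue) libraries; circles are replicate 1, triangles replicate 2, lines the group means, and a star marks ephrins outside the 10 genes. *EPHA1* sits near 4.67 in edited and 103 in wild-type libraries, and edited replicate 1 is far below edited replicate 2 for *EFNA1*.

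*EPHA1*, the founding member of the family and a receptor of epithelia that binds A-class ephrins, stood at 4.75 and 4.59 in the edited pair against 92.4 and 114 in the wild-type pair. Both edited libraries were far below both wild-type libraries, and the closest pair of an edited and a wild-type library still differed 19.4-fold. Edited cells averaged 4.67 ± 0.113 and wild-type cells 103 ± 15.5 (SD, n = 2 each), a ratio of 22.1. From the length of its canonical transcript, about 251 and 272 reads stood behind the edited values and about 4543 and 6056 behind the wild-type values. On the log2 scale the difference was -4.19 (limma, standard error 0.19, adjusted p = 0.00183). A lower ratio of edited to wild-type means was found for 43 of the 9590 tested genes (0.448%). Leaving out any single library kept the log2 difference between -4.35 and -4.04, but without wild-type replicate 2 it did not pass the threshold (limma adjusted p = 0.0652), where 4 of all tested genes passed. At an adjusted p under 0.001 it was not called either, as 1 gene of the series was (0.0104%).

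*EPHA1* lies on the minus strand of chromosome 7 of GRCh38.p14, from 143391129 to 143408856. Genes tested there had a median log2 difference of -0.18, which is -0.27 from the median of all tested genes, and 1 of the other 448 had a lower log2 difference than *EPHA1*. Of the genes that start within 500 kb of it, 5 were tested and 0 were called by limma. These neighbours had a median log2 difference of -0.40, with a range from -1.80 to 0.04. *ZYX*, the gene of the focal adhesion protein zyxin, starts 27.5 kb away and had a log2 difference of 0.04 (limma adjusted p = 0.94). *TMEM139*, 124 kb away, had the lowest value of the 5 neighbours at -1.80 (limma adjusted p = 0.0511). The plot of neighbouring genes shows *EPHA1* well below them.

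*EPHA2*, the receptor that ephrin-A1 binds and a regulator of epithelial contacts and migration, stood at 108 and 165 in the edited pair against 75.2 and 45.7 in the wild-type pair. Both edited libraries were above both wild-type libraries, but replicates of each group differed by more than 1.5-fold (1.52 in edited and 1.64 in wild-type cells), so that the closest pair of libraries from the 2 groups differed 1.44-fold. Its values were whole multiples of one step, which gave read numbers of 3235, 5522, 2085 and 1365 in the same order, or a common multiple of these. Edited cells averaged 137 ± 40.1 and wild-type cells 60.4 ± 20.8 (SD, n = 2 each). This is a log2 difference of 1.18 (95% interval 0.36 to 1.99, limma adjusted p = 0.0816) and did not pass the threshold. With any single library left out it stayed between 0.82 and 1.53.

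Within a library, the order of *EPHA2* and *EPHA1* was opposite in the groups. The value of *EPHA2* was 22.8 and 36 times that of *EPHA1* in the edited pair, and 0.813 and 0.399 times that of *EPHA1* in the wild-type pair. *EPHA2* held 46.2% and 49.6% of the summed value of the 7 receptors in edited libraries and 18.9% and 12.2% in wild-type libraries. *EPHA1* held 2.03% and 1.38% in edited and 23.2% and 30.6% in wild-type libraries. The 2 genes added together overlapped between groups, at 113 and 169.8 in edited and 168 and 160.1 in wild-type libraries.

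The promoter windows of these receptors are shown because *EPHA1* and *EPHB3* were the receptors called and *EPHA2* the only one with a higher mean. Each window runs from 250 bases before to 50 after the RefSeq start (GRCh38.p14) and is written along the transcribed strand. Capitals mark matches to CAGGTG or CACCTG, which are the same site read on opposite strands and are letters that ZEB and SNAI repressors are known to bind. The windows are chr7:143408807-143409106 (minus strand) for *EPHA1*, chr1:16156020-16156319 (minus strand) for *EPHA2* and chr3:184561535-184561834 (plus strand) for *EPHB3*.
EPHA1 promoter: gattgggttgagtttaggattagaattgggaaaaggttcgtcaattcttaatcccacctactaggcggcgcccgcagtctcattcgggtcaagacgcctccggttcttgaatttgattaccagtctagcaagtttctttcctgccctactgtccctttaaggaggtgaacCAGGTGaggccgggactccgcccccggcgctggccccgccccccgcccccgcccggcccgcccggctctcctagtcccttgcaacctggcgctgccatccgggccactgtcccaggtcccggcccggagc
EPHA2 promoter: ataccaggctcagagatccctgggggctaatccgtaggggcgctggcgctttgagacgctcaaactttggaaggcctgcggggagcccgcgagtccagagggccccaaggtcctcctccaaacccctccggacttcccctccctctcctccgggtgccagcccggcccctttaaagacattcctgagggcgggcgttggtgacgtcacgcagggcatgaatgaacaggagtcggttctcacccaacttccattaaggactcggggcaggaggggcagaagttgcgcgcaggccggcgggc
EPHB3 promoter: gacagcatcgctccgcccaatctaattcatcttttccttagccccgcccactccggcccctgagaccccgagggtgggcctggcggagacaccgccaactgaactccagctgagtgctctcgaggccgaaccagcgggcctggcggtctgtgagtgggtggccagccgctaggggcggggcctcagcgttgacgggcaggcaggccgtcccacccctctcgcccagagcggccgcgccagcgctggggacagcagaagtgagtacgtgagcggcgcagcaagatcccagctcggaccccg
The window of *EPHA1* held 1 match, which begins 80 bases before the start, and those of *EPHA2* and *EPHB3* held 0. The 10 genes had 12 windows, and 3 genes had a match in any of theirs (*EPHA1*, *EPHB2* and *EFNB2*). Counted by window and not by gene, 20.6% of 35116 RefSeq promoter windows of the same length had one. GC content was 62% for *EPHA1*, 64.3% for *EPHA2* and 69% for *EPHB3*, against a median of 58.7% over all windows. A match is a description of the letters and not a binding site.

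*EPHA4*, a receptor that binds ephrins of both classes, had a low and unsteady level. Its value was 4.33 and 1.32 in the edited pair against 1.27 and 4.64 in the wild-type pair. The groups overlapped, and replicates of a group differed by 3.29-fold and 3.65-fold. With a mean under 10 it was tested among all 16811 genes, of which 4.73% were called. Its log2 difference of -0.03 had a 95% interval from -1.53 to 1.48 (limma adjusted p = 0.983), and the sign turned to 0.16 with quantile normalization and to 0.12 with cyclic loess.

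*EPHB3*, an EphB receptor known from cell positioning in the intestinal epithelium, fell in edited cells. Its value was 20.6 and 17.9 in the edited pair against 41.7 and 49.7 in the wild-type pair. Each edited library was at least 2.02-fold below each wild-type library. Edited cells averaged 19.3 ± 1.93 and wild-type cells 45.7 ± 5.7 (SD, n = 2 each), with a log2 difference of -1.20 (standard error 0.19, limma adjusted p = 0.0285). The call was lost without wild-type replicate 1 (limma adjusted p = 0.0848) and without wild-type replicate 2 (limma adjusted p = 0.182), although the log2 difference stayed between -1.33 and -1.08 whichever library was dropped. The gene lies on chromosome 3, from 184561785 to 184582408 on the plus strand of GRCh38.p14. Genes tested on it had a median log2 difference of 0.04, and 0 of its 12 tested neighbours within 500 kb were called by limma.

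*EPHB4*, the receptor of ephrin-B2 that is known from venous endothelium, was the most abundant receptor of wild-type cells. Its value was 80.5 and 119 in the edited pair against 158 and 129 in the wild-type pair. The groups did not overlap, but edited replicate 2 and wild-type replicate 2 differed by 1.08-fold only. Its log2 difference was -0.54 (95% interval -1.19 to 0.11, limma adjusted p = 0.212) and did not pass the threshold. *EPHB4* also lies on chromosome 7, and it stood -0.35 from the median of that chromosome.

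*EPHB2*, which shares ligands with *EPHB3*, stood at 15.2 and 23.7 in the edited pair against 28.9 and 26.5 in the wild-type pair. Again edited replicate 1 was the lowest library. The log2 difference was -0.52 (95% interval -1.13 to 0.10, limma adjusted p = 0.208). *EPHB6*, a family member whose kinase domain lacks catalytic activity, was at 0.825 and 0.681 in the edited pair against 1.39 and 3.23 in the wild-type pair, with about 52.6 and 48.7 reads behind the edited values. Tested among all genes, its log2 difference of -0.86 did not pass the threshold (95% interval -1.76 to 0.04, limma adjusted p = 0.183). Like *EPHA1* and *EPHB4*, *EPHB6* lies on chromosome 7, and it stood -0.67 from the median of that chromosome.

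**Figure D2:**
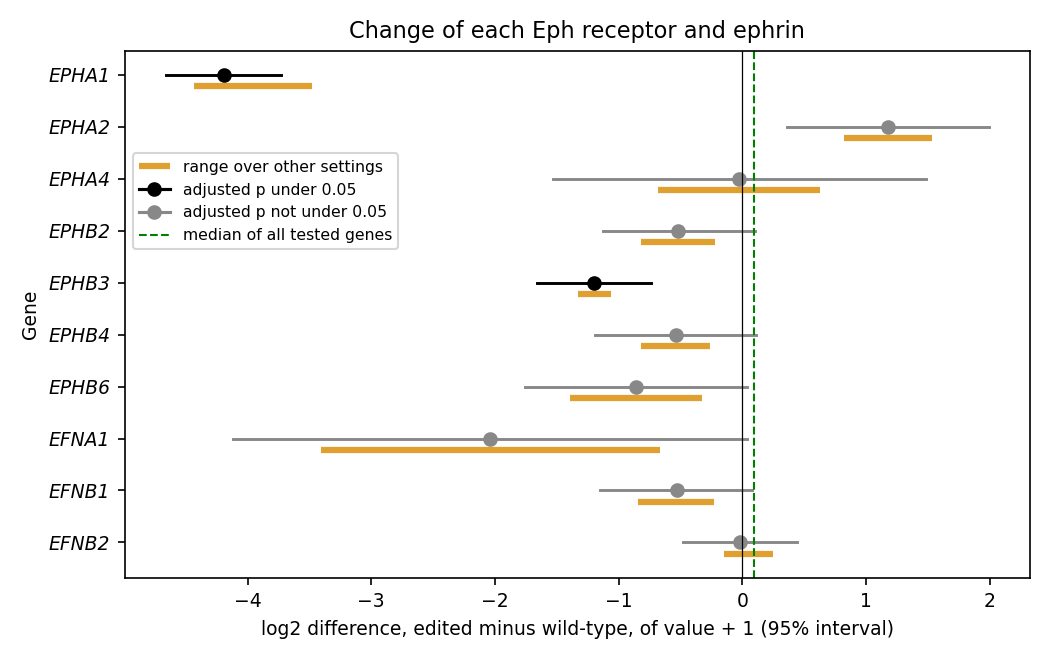
log2 difference (edited minus wild-type, of value + 1) of the 10 genes with its 95% interval from limma; black passed an adjusted p of 0.05 and grey did not, orange bars span the other settings tried, and the dashed green line is the median of all tested genes (0.09). *EPHA1* at -4.19 and *EPHB3* at -1.20 are black, and *EPHA2* at 1.18 is the only gene on the right with an interval above 0.

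Across the 7 receptors, 6 had a lower mean in edited cells and 6 had groups that did not overlap. Among all tested genes 65.1% had groups that did not overlap, 26.9% with lower and 38.3% with higher edited values, so such a gap was common in these libraries. The median log2 difference of the 7 receptors was -0.54, beside 0.09 for all tested genes. The summed receptor value was 235 and 333 in the edited pair against 399 and 374 in the wild-type pair, a ratio of means of 0.735. EphB receptors summed to 117 and 162 in edited and to 229.8 and 209 in wild-type libraries, which did not overlap. EphA receptors summed to 118 and 171 in edited and to 169 and 165 in wild-type libraries, which overlapped. EphA receptors made up 50.1% and 51.4% of receptor RNA in edited and 42.4% and 44.1% in wild-type libraries.

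The order of receptor levels differed between groups. In wild-type cells it was *EPHB4* (mean value 144), *EPHA1* (103), *EPHA2* (60.4), *EPHB3* (45.7), *EPHB2* (27.7), *EPHA4* (2.96) and *EPHB6* (2.31). There the ranges of *EPHA2* and *EPHB3* overlapped, as did those of *EPHA4* and *EPHB6*. In edited cells *EPHA2* (137) and *EPHB4* (99.9) came before the rest and overlapped each other. *EPHB2* (19.5) and *EPHB3* (19.3) followed, also with overlapping ranges, and *EPHA1* (4.67) came next, above *EPHA4* and *EPHB6*.

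**Figure D3:**
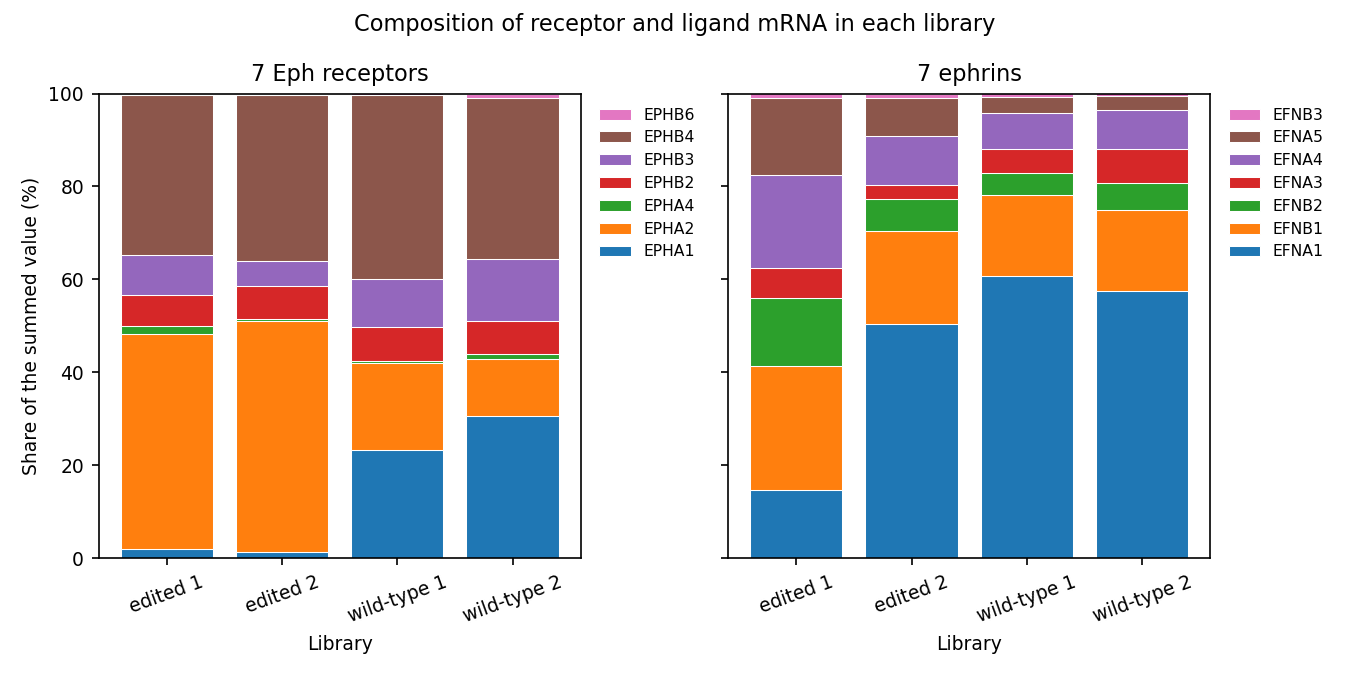
Share of the summed value (%) that each gene took in each library, for 7 Eph receptors (left) and 7 ephrins (right). *EPHA2* takes 46.2% and 49.6% of the receptor value in edited libraries against 18.9% and 12.2% in wild-type libraries, and the share of *EFNA1* among ephrins is 14.8% in edited replicate 1 and 50.4% in edited replicate 2.

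Among the ligands, *EFNA1*, the A-class ephrin that binds *EPHA2* and is induced by tumor necrosis factor, was the most abundant in wild-type cells and differed widely between edited replicates. Its value was 23.6 and 164 in the edited pair against 269.5 and 253 in the wild-type pair. Both edited libraries were below both wild-type libraries, one by 11.4-fold at most and the other by 1.55-fold at least. The whole-step read numbers were 367, 2850, 3893 and 3934 in the same order, or a common multiple of these. The edited libraries thus differed 6.93-fold, and the means were 93.7 ± 99 in edited and 261 ± 11.7 in wild-type cells (SD, n = 2 each). Only 52 of the 9590 tested genes (0.542%) had a larger gap between the edited replicates on the log2(value + 1) scale, where *EFNA1* had 2.74 and the median gene 0.23.

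The log2 difference of *EFNA1* was -2.04 (95% interval -4.12 to 0.04, limma adjusted p = 0.16). It was -3.41 without edited replicate 2, which passed the threshold (limma adjusted p = 0.000351), and -0.67 without edited replicate 1 (limma adjusted p = 0.253). In such a fit the lone edited library is assumed to vary like the wild-type pair, so the gap between the edited libraries no longer counts toward the error. The size of this difference therefore rested on which edited library was used. Per library, the value of *EFNA1* was 0.218 and 0.991 times that of its receptor *EPHA2* in the edited pair, and 3.59 and 5.53 times in the wild-type pair.

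*EFNB1*, an X-linked B-class ephrin, stood at 42.4 and 65.4 in the edited pair against 77.2 and 76.2 in the wild-type pair. Edited replicate 1 was again the lowest, with whole-step read numbers of 2471, 4274, 4189 and 4449 in the same order. The log2 difference of -0.53 did not pass the threshold (95% interval -1.15 to 0.08, limma adjusted p = 0.2).

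*EFNB2*, the B-class ephrin that pairs with *EPHB4* between arteries and veins, had close values in all libraries. It was at 23.6 and 21.8 in the edited pair against 21 and 25.2 in the wild-type pair, and the groups overlapped. The log2 difference was -0.02 with a 95% interval from -0.48 to 0.44 (limma adjusted p = 0.953). It lies on chromosome 13, where the tested genes had a median log2 difference of -0.27, and less that median it was 0.25. For ligands, 0 of 3 were called by limma and 0 had an unadjusted p under 0.05, beside 32.3% of all tested genes at that unadjusted p. Their summed value was 89.6 and 251 in edited and 368 and 354 in the wild-type pair, a ratio of means of 0.472, which moved to 0.248 when edited replicate 2 was dropped and to 0.695 without edited replicate 1.

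Of the 12 other family genes, 4 ephrins and 0 receptors were among the genes analysed. *EFNA3*, an A-class ephrin, was lower in edited cells, at 10.4 and 9.88 against 23.1 and 32.1 in the wild-type pair (log2 difference -1.34, standard error 0.23, limma adjusted p = 0.0355). *EFNA5*, an A-class ephrin that also binds *EPHB2*, was higher, at 26.7 and 26.8 against 14.4 and 12.7 (log2 difference 0.93, standard error 0.18, limma adjusted p = 0.0443). It lies on chromosome 5, where the median log2 difference was 0.36. The call of *EFNA3* was lost without wild-type replicate 1 (limma adjusted p = 0.0817) and without wild-type replicate 2 (limma adjusted p = 0.191). The call of *EFNA5* was lost whichever library was dropped (adjusted p from 0.0655 to 0.215, limma), with equal library totals (limma adjusted p = 0.0528) and without the filter on low values (limma adjusted p = 0.0553). *EFNA4* was at 31.9 and 34.1 in edited and 34.3 and 37 in wild-type libraries (log2 difference -0.11, 95% interval -0.52 to 0.30, limma adjusted p = 0.675). *EFNB3* stayed under a mean of 10, at 1.62 and 2.92 in edited and 3.85 and 2.87 in wild-type libraries. Over all 7 ephrins, the summed value was 160.2 and 325 in edited and 443 and 439 in wild-type libraries.

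*EFNA1*, *EFNA3* and *EFNA4* lie together on chromosome 1, *EFNA1* from 155127876 to 155134899 on the plus strand of GRCh38.p14. *EFNA3* starts 49 kb and *EFNA4* 64.1 kb before *EFNA1*. Of 22 tested neighbours of *EFNA1* within 500 kb, 2 were called lower, 1 was called higher, and their median log2 difference was 0.02. Among these 3 ephrins of one cluster, *EFNA3* was called, *EFNA1* differed between edited libraries and *EFNA4* lay near 0.

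**Figure D4:**
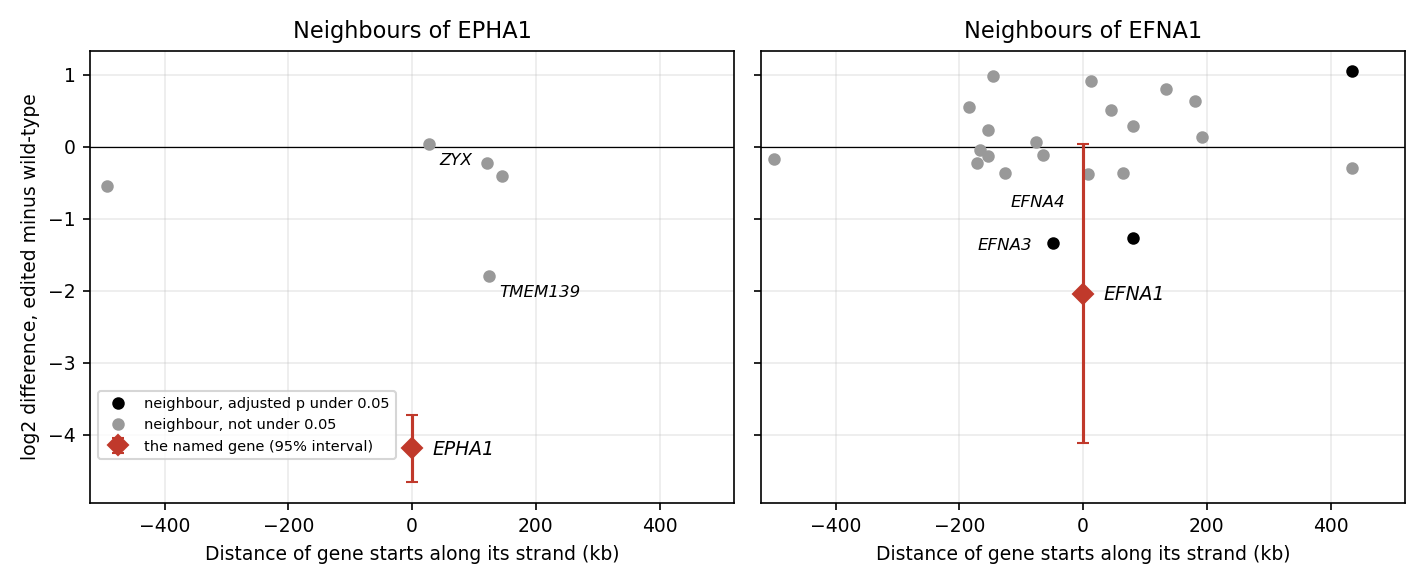
log2 difference (edited minus wild-type) of tested genes within 500 kb of *EPHA1* (left) and *EFNA1* (right), against the distance between gene starts along the strand of the named gene (kb); the red diamond is the named gene with its 95% interval and black points passed an adjusted p of 0.05. *EPHA1* at -4.19 is below its 5 neighbours, the lowest of which is *TMEM139* at -1.80, and *EFNA3* at -1.34 is the lowest of the 22 neighbours of *EFNA1*.

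The RNA under study hosts miR-29b2 and miR-29c, whose shared seed (bases 2 to 8, AGCACCA) pairs with TGGTGCT in a 3′ UTR, so these letters were sought in the UTRs. In the canonical transcripts of GENCODE version 44 on GRCh37, *EPHB2* held 2 matches and *EPHB3* held 1, and 0 were found in the other 8 genes. Of the other ephrins, *EFNA5*, which was higher in edited cells, held 1 match and *EFNB3*, which was not called, held 1. Over 19249 canonical 3′ UTRs, 14.1% held a match, a share that takes no account of UTR length. Lengths were 7930 bases for *EPHB2*, 786 for *EPHB3*, 4361 for *EFNA5* and 1796 for *EFNB3*. UTRs of the family genes without a match ran from 189 bases (*EPHB6*) to 3345 (*EPHA4*). The sites are printed along the transcript with the match in capitals, because *EPHB3* was one of the receptors called and *EPHB2* held the most matches of the 10 genes. They lie at chr1:23240120-23240148 and chr1:23243404-23243432 for *EPHB2* and at chr3:184299937-184299965 for *EPHB3*, all on the plus strand of GRCh37.
EPHB2 UTR match near the stop codon: gccggccctccTGGTGCTctatccactgc
EPHB2 UTR match farther on: tgggtcattgtTGGTGCTcagcagtcctc
EPHB3 UTR match: acccccgccctTGGTGCTgtcataaaagg
*EPHB3* fell and *EPHB2* had a log2 difference of -0.52 that did not pass the threshold. The study reported less miR-29c in edited cells. Among the family genes with a match, *EPHB3*, *EPHB2* and *EFNB3* thus had lower means along with miR-29c, and *EFNA5* had a higher one. The same seed is found in miR-29a, whose gene lies on chromosome 7 and which was not analysed here. Whether the matches act in the cells was not tested.

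Genes that carry Eph and ephrin signals were described by lists of known partners. Together 39 of 60 listed genes were tested, of which 2 were higher and 1 was lower in edited cells (7.69%, beside 7.09% of all tested genes). Their median log2 difference was -0.14, beside 0.09 for all tested genes. The other 36 were not called, and the plot of the signalling lists shows each gene.

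Among adaptors and phosphatases, which couple the phosphorylated receptor to the cell interior, 1 of 18 tested genes was called. *PIK3R1*, the regulatory subunit of PI3-kinase, was higher, at 50.5 and 49.4 in edited and 17.2 and 25.1 in the wild-type pair (log2 difference 1.22, limma adjusted p = 0.0403). Among exchange factors and GTPase-activating proteins 2 of 9 were called. *ARHGEF16*, an exchange factor that binds EPHA2, was lower, at 12.5 and 11.2 in edited and 44.3 and 47.9 in wild-type libraries (log2 difference -1.87, limma adjusted p = 0.00878). *CHN1*, a Rac GTPase-activating protein that acts after EPHA4, was higher, at 70.2 and 22.4 in edited and 2.98 and 4.64 in wild-type libraries (log2 difference 3.11, limma adjusted p = 0.0378), and the edited replicates differed widely.

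Of Src and Abl kinases 0 of 5 were called by limma, and of PDZ partners of ephrin-B and proteases 0 of 7. The rhomboid protease *RHBDL2*, which is known to cleave ephrin-B3, had a mean under 10 and was lower among all genes (1.27 and 1.41 in edited, 11.9 and 17.3 in wild-type libraries, limma adjusted p = 0.0167). Each of these 4 calls was lost without wild-type replicate 1 (adjusted p from 0.0626 to 0.112, limma) and without wild-type replicate 2 (adjusted p from 0.0991 to 0.182, limma). *PIK3R1* was also lost without edited replicate 1 (limma adjusted p = 0.0713), with equal library totals (0.0566), with cyclic loess (0.053) and without the filter on low values (0.0526), and *RHBDL2* without edited replicate 1 (0.0841) or 2 (0.0531).

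**Figure D5:**
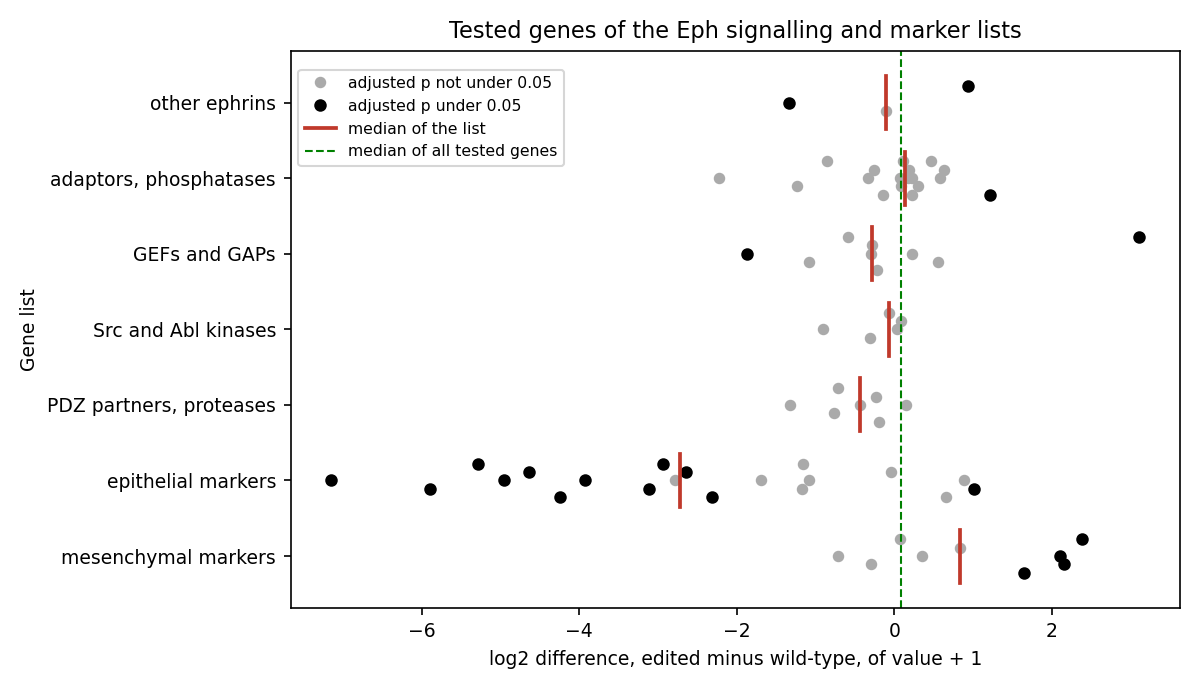
log2 difference (edited minus wild-type, of value + 1) of each tested gene in the Eph signalling and marker lists; black points passed an adjusted p of 0.05, red bars are list medians and the dashed green line is the median of all tested genes (0.09). The medians are 0.14 for adaptors, -0.07 for kinases, -0.28 for exchange factors and GTPase-activating proteins and -0.44 for ephrin-B partners and proteases, beside -2.71 for epithelial markers.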

How the data were processed

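The authors deposited 1 normalized expression signal per gene and library. The submitters' processing notes name Salmon, HISAT2 and hg38 without a role. The annotation and normalization are not given in the sources used here. For each pair of libraries the commonest ratio of values gave the relative worth of 1 read (85 to 150 genes shared the ratio with edited replicate 1). With these ratios 4738 of 16638 genes (28.5%) had values that were whole multiples of one step (tolerance 1e-05, up to 5000 steps in the lowest library), *EPHA2* and the 3 ligands among them. Most genes showed no such step, and no count test was used. Other read numbers are estimates from the canonical transcript length and the median step of 286 single-transcript genes. Such estimates are rough. In edited replicate 1 they were 6835 for *EPHA2* beside 3235 steps and 586 for *EFNA1* beside 367. They were closer for *EFNB1* (2235 beside 2471) and *EFNB2* (1884 beside 1979). Reads carry no molecular identifiers, and read numbers bear on counting error only.

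limma 3.58.1 in R 4.3.3 (lmFit, eBayes with trend) was fitted to log2(value + 1) without a block, over genes with a mean of at least 10. Named genes under that mean came from the same fit over all genes. Fold changes on this scale understate those of low genes. The procedure was tested on simulated data. No source ties replicate numbers to shared cultures, and p-values measure the spread between 2 libraries per group. The paper's adjusted p of 0.001 was an alternative to 0.05.

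The 10 genes and all gene lists were chosen with earlier results of these data known. All 10 were named whatever their values, with other family genes analysed and, of signalling lists, called genes (at most 5 per list). One list of signalling genes is not reported here. *RHBDL2* came from the fit over all genes. *ZYX* and *TMEM139* were named after their values were seen. Positions came from RefSeq (GRCh38.p14), which placed 93.4% of tested genes by symbol or synonym. Promoters came from RefSeq (GRCh38.p14) and 3′ UTRs from GENCODE version 44 on GRCh37. Python 3.11.15, pandas 2.3.3 and numpy 2.4.6 were used.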

Additional observations from a re-analysis of the deposited data

How the results depend on the processing

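Alternatives in pseudocount (0.1 and 5), filter, scaling, block, variance model and threshold were tried, and fits were repeated without each library. The crossed pairing was chosen after seeing the data. The count of called genes, 680, was 419 with a mean of at least 50 (fewer genes tested), 133 with the replicate block and 1 at a threshold of 0.001, and from 4 to 1431 with a library left out. Called receptors, 2, became 1 with a mean of at least 50, where *EPHB3* was not tested, 1 with the replicate block and 0 at 0.001, and 0 to 2 with a library left out. Called ligands, 0, ranged from 0 to 1 with a library left out. Signalling genes, 3, became 0 with a mean of at least 50, 1 with the replicate block, 0 at 0.001 and 6 with the crossed pairing, and 0 to 8 with a library left out. At an unadjusted p under 0.05 limma gave 3 of the 10 genes and 14 of 39 signalling genes, beside 32.3% of all tested genes. Dropping wild-type replicate 2 left 4 called genes and dropping wild-type replicate 1 left 47, against 424 and 1431 for edited replicates 1 and 2. The cause of these moves was not tested, except that fewer samples or genes were tested where stated.

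Same-numbered libraries deviated from their group means with a correlation of -0.138 over 9590 genes. With 2 libraries a group, this value cannot show which libraries, if any, shared a culture or handling. Under the replicate block *EPHA1* passed (adjusted p = 0.0257, limma) and *EPHB3* did not (0.0714), nor did *EFNA3* (0.0725), *EFNA5* (0.0808), *PIK3R1* (0.0734), *CHN1* (0.0754) and *RHBDL2* (0.0531), and under the crossed pairing 1002 genes and 3 receptors were called, *EPHA2* (0.03) among them. *EPHA4* (from -0.68 to 0.63 with a library left out) reversed to 0.16 with quantile normalization, 0.12 with cyclic loess, 0.57 without edited replicate 2 and 0.63 without wild-type replicate 2. *EFNB2* (from -0.15 to 0.11) reversed to 0.04 without edited replicate 2, 0.11 without wild-type replicate 2 and 0.25 less its chromosome median. At an adjusted p of 0.05, *EPHA1* passed in 16 of the 17 fits that tested it and *EPHB3* in 13 of 16, the reported one included. The ratio of summed receptors stayed from 0.608 to 0.862 with a library left out. Among the 10 genes, *EPHB6* had the fewest estimated reads in each library (48.7 to 207). A fit without a library assumes that the lone library of its group varies like the other group.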
